A study of Drosophila melanogaster with 4 samples.

Results

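The H3K9ac landscape described here is that of the middle of chromosome arm 3R in Oregon-R, a wild-type strain of Drosophila melanogaster, sampled as whole animals in the third larval instar. Its members are the clusters, the deposited regions of significant ChIP-seq enrichment, that lie on 3R with their midpoint beyond the first 2 Mb and no farther than position 25905053 of FlyBase release 5. This is the arm without the outer 2 Mb at each end, and spans 23.9 Mb. Replicate 1 held 1336 such clusters of 6545 in its whole list (20.4%), and replicate 2 held 1590 of 7629 (20.8%). These are 84.8% and 84.1% of all clusters on 3R. The members were chosen by position alone, not by any measured value.

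The study has 4 samples, namely 2 libraries immunoprecipitated with an H3K9ac antibody (ChIP) and 2 input libraries. All come from the same strain, genotype and stage, so the design has no second condition, and the comparisons it allows are between the replicates and between stretches of the genome. Whole animals hold many tissues, and a cluster in such a sample cannot tell a mark in a few cells at a high level from one in many cells at a low level. The labels do not state whether the replicates were collected separately, so their spread may be technical. The files hold no read counts. The sequencing depth is therefore unknown, and counting error cannot be given. No genome or annotation of release 5 was used here, so clusters are named by position, without genes or sequence.

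Acetylation of lysine 9 of histone H3 is placed by histone acetyltransferases such as Gcn5, which in flies works within the SAGA and ATAC complexes, and is removed by histone deacetylases. The mark sits mainly around the start sites of active genes and over the first part of their bodies. Fly genes with broad expression tend to lie close together, while genes used in single tissues or stages often stand in long intervals with few other genes. In the polytene chromosomes of larval tissues, compact bands alternate with open interbands, and active promoters are found mainly in the interbands.

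Clusters covered 4.38 Mb of the 3R middle in replicate 1 and 4.68 Mb in replicate 2, or 18.3% and 19.6% of its length (19.0% ± 0.881, SD, n = 2). Both lists covered the same 3.78 Mb (15.8%), and 5.29 Mb (22.1%) lay in at least 1 of them. There were 55.9 clusters per Mb in replicate 1 and 66.5 in replicate 2 (61.2 ± 7.51, SD, n = 2). Replicate 2 thus held more clusters, but they were shorter, with a median of 2351 bp against 2677 bp. Each cluster carries 1 deposited score, which is the authors' own value on a scale that is not stated. At the median it was 0.75 in replicate 1, with quartiles of 0.52 and 1.19, and 0.65 in replicate 2, with quartiles of 0.52 and 1.05. The lower quartiles were alike and the upper ones were not.

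At the limits of the 3R middle, replicate 1 had its last cluster outside from 1982224 to 1983652 (score 0.52) and its first inside from 2023773 to 2025865 (0.57). At the telomere side its last cluster inside ran from 25887462 to 25892819 (0.61) and the next one outside from 25921294 to 25922765 (0.39). In replicate 2 the clusters beside the same limits scored 0.77 outside and 0.43 inside on the centromere side, and 1.00 inside and 0.52 outside on the telomere side.

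The marked sequence was spread unevenly along the arm. The 3R middle was divided into 239 full bins of 100 kb, and the share of each bin covered in both replicates had a median of 13.4% and ran from 0% to 54.0%. A bin was taken as dense at 1.5 times the median or more (20.1% of its bases) and as sparse at 0.5 times the median or less (6.69%). By this rule 74 bins were dense, 96 intermediate and 69 sparse. The dense bins, 31.0% of the 3R middle, held 61.5% of the bases covered in both replicates, and the sparse bins, 28.9% of it, held 4.52%. The 24 bins with the highest coverage (10%) alone held 27.1%.

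**Figure D1:**
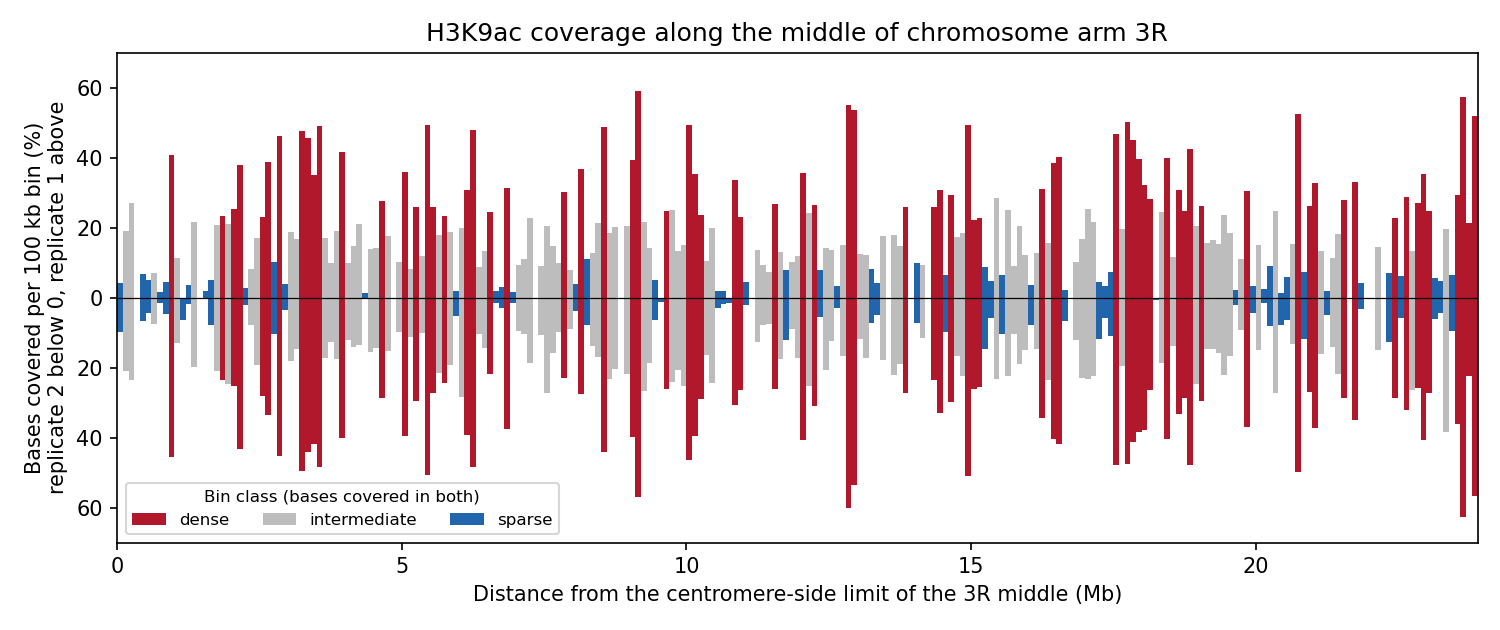
Share of each 100 kb bin of the 3R middle covered by H3K9ac clusters (percent of bases) against distance from its centromere-side limit in Mb, with replicate 1 above the zero line and replicate 2 below it. Colours give the 3 bin classes: the 74 dense bins stand mostly alone or in short runs among the 69 sparse and 96 intermediate ones, and the profiles of both replicates mirror each other.

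Runs of bins of the same class were short. The class changed between 149 of the 238 pairs of neighbouring bins (62.6%), which gave 150 runs of a single class. With 3 classes of 28.9% to 40.2% of the bins each, most neighbouring pairs would differ in class in a random order too. Most changes were to or from an intermediate bin, the largest class, and 33 of the 149 led directly between a dense and a sparse one. Of the 46 dense runs, 29 were 1 bin long and 7 held 3 bins or more, and of the 46 sparse runs, 28 were 1 bin long and 5 held 3 or more. The longest dense run had 5 bins, from 19700001 to 20200000, with a mean of 34.4% covered in both replicates. Dense runs of 4 bins lay from 5200001 to 5600000 (40.5%) and from 25500001 to 25900000 (37.9%). No sparse run was longer than 3 bins. The sparse runs of that length included those from 2300001 to 2600000 (3.36%) and from 3400001 to 3700000 (1.45%).

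The class of the next bin can be set beside the share of that class among all bins, without a test. Of 73 dense bins with a bin after them towards the telomere, 28 were followed by another dense bin (38.4%, where 31.0% of all bins are dense) and 19 by a sparse one (26.0%, where 28.9% of all bins are sparse). Of 69 sparse bins, 23 were followed by a sparse bin (33.3%) and 14 by a dense one (20.3%, where 31.0% of all bins are dense). Neighbouring bins were thus weakly alike. Pearson's r of the share covered in both replicates was 0.19 between bins 1 apart, 0.058 between bins 2 apart and -0.0014 between bins 3 apart. At 5, 10 and 20 bins apart it was -0.078, -0.036 and -0.078. These are correlations along 1 arm, whose bins share the same libraries, and they are given as a description only.

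The bins with the highest coverage differed in how strongly their clusters scored. The first was the bin from 25600001 to 25700000, covered to 57.5% in replicate 1 and 62.8% in replicate 2, with 12 and 13 clusters and median scores of 1.03 and 0.69. The second, from 11100001 to 11200000, was covered to 59.1% and 56.9%, with 15 clusters in each replicate and medians of 1.19 and 1.22. The third, from 25800001 to 25900000, was covered to 52.1% and 56.6%, with median scores of 1.27 and 1.16. In this bin and the first, replicate 2 covered more. Over all 239 bins, replicate 2 covered more in 140 and replicate 1 in 85.

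The fourth, from 14800001 to 14900000, was covered to 55.1% and 60.2%, but its 11 and 13 clusters had median scores of only 0.61 and 0.66, which in replicate 1 is below the median of all clusters, 0.75. The fifth, from 5500001 to 5600000, was covered to 49.2% and 48.5% by 14 and 15 clusters with medians of 1.34 and 1.24. Bins covered near 50% thus had high or middling median scores. The median weighs each cluster alike, whatever its length. In the fourth bin, 1 cluster of 24033 bp in replicate 1 scored 0.89, and 1 of 13023 bp in replicate 2 scored 1.00. At the other extreme, 20 bins had no base covered in both replicates, and 14 of them held no cluster base of either list. These 20 are tied, so no 5 lowest bins can be named.

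The class of a bin carried over from one library to the other in the number, length and score of its clusters. The class is set by covered bases, which depend on the number and length of clusters, and score went with length, so the order of these values is favoured by the definition and is given as a description. Bins were classed by the coverage of 1 replicate and measured in the other, whose coverage of the bins is closely correlated. Bins classed as dense in replicate 1 (74 bins) held 11.2 clusters each in replicate 2, against 6.17 in the 102 intermediate and 2.06 in the 63 sparse bins. The median length in replicate 2 fell over these classes from 2593 bp to 2269 bp and 1694 bp, and the median score from 0.71 to 0.63 and 0.52. Of the replicate 2 clusters, 14.4% were longer than 5 kb in the dense bins, 8.74% in the intermediate ones and 0% in the sparse ones.

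The reverse choice gave the same order. In bins classed by replicate 2, replicate 1 held 9.80, 5.25 and 1.34 clusters per dense, intermediate and sparse bin, with median lengths of 2932 bp, 2537 bp and 2194 bp and median scores of 0.86, 0.70 and 0.58. Clusters longer than 5 kb were 19.7%, 10.4% and 2.41% of them. Both libraries come from the same strain and stage, so this shows that the classes carry over between the libraries, not that the bins are independent. No test was run, since only 2 libraries of 1 group are compared.

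The pattern of bins was nearly the same in both libraries. Of the 239 bins, 201 (84.1%) fell in the same class in each replicate, and 0 were dense in one and sparse in the other. The covered shares of the replicates correlated over bins with Pearson's r of 0.973 and Spearman's rho of 0.970. The median absolute difference was 1.84 percentage points. Replicate 2 covered more in 140 bins and replicate 1 in 85. The bin with the largest excess in replicate 2, from 25300001 to 25400000, had 19.7% of its bases in clusters of replicate 1 and 38.5% in those of replicate 2, with 8 and 15 clusters. The largest excess in replicate 1 was at 10100001 to 10200000, with 36.8% against 27.5%. These last bins were picked after their values were seen.

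**Figure D2:**
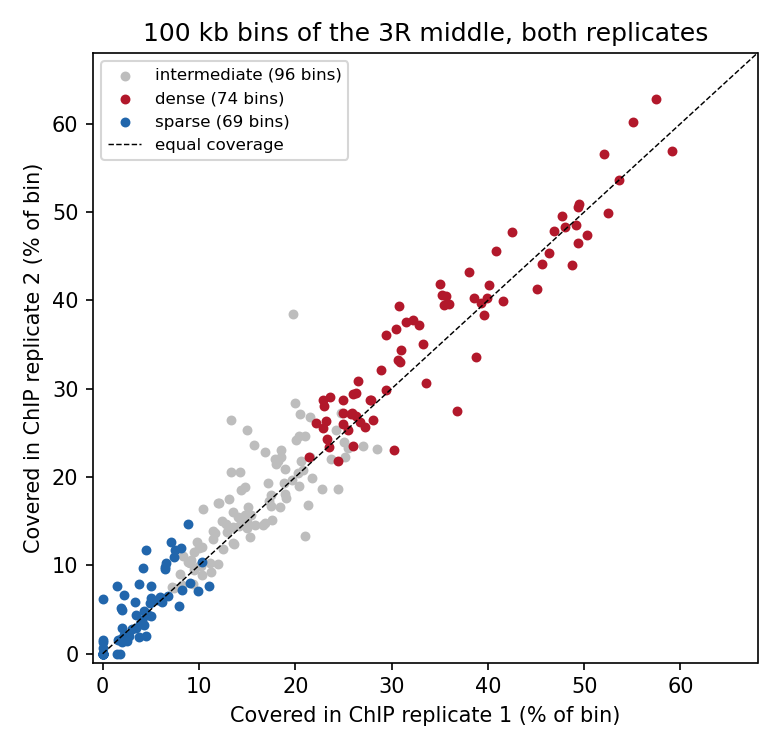
Each point is a 100 kb bin of the 3R middle, placed by the percent of its bases covered in ChIP replicate 1 (x axis) and in ChIP replicate 2 (y axis), and coloured by class. Points follow the dashed line of equal coverage, and the farthest point above it is the bin with 19.7% and 38.5%.

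Coverage also varied at a coarser scale. Over the 23 full windows of 1 Mb, the share covered in both replicates had a median of 15.0% and ran from 8.69% to 26.6%. The window from 5000001 to 6000000 was the densest, with 30.1% covered in replicate 1 and 30.4% in replicate 2, and held 0 sparse bins. The sparsest ran from 13000001 to 14000000, with 10.5% and 11.1%. The windows after it, picked after their values were seen, were high and low in turn. The window from 14000001 to 15000000 had 24.96% and 26.9%, the next 11.3% and 12.7%, and the one from 16000001 to 17000000 had 19.8% and 20.5%.

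More stretches were picked in the same way. In the first 2 windows, up to 4000000, 11 of the 20 bins were sparse and 2 were dense, and the windows were covered to between 10.9% and 12.4%. From 19000001 to 21000000, 10 of the 20 bins were dense and the windows were covered to between 25.5% and 27.2%. Pearson's r between neighbouring windows was -0.14 over the 23 windows.

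**Figure D3:**
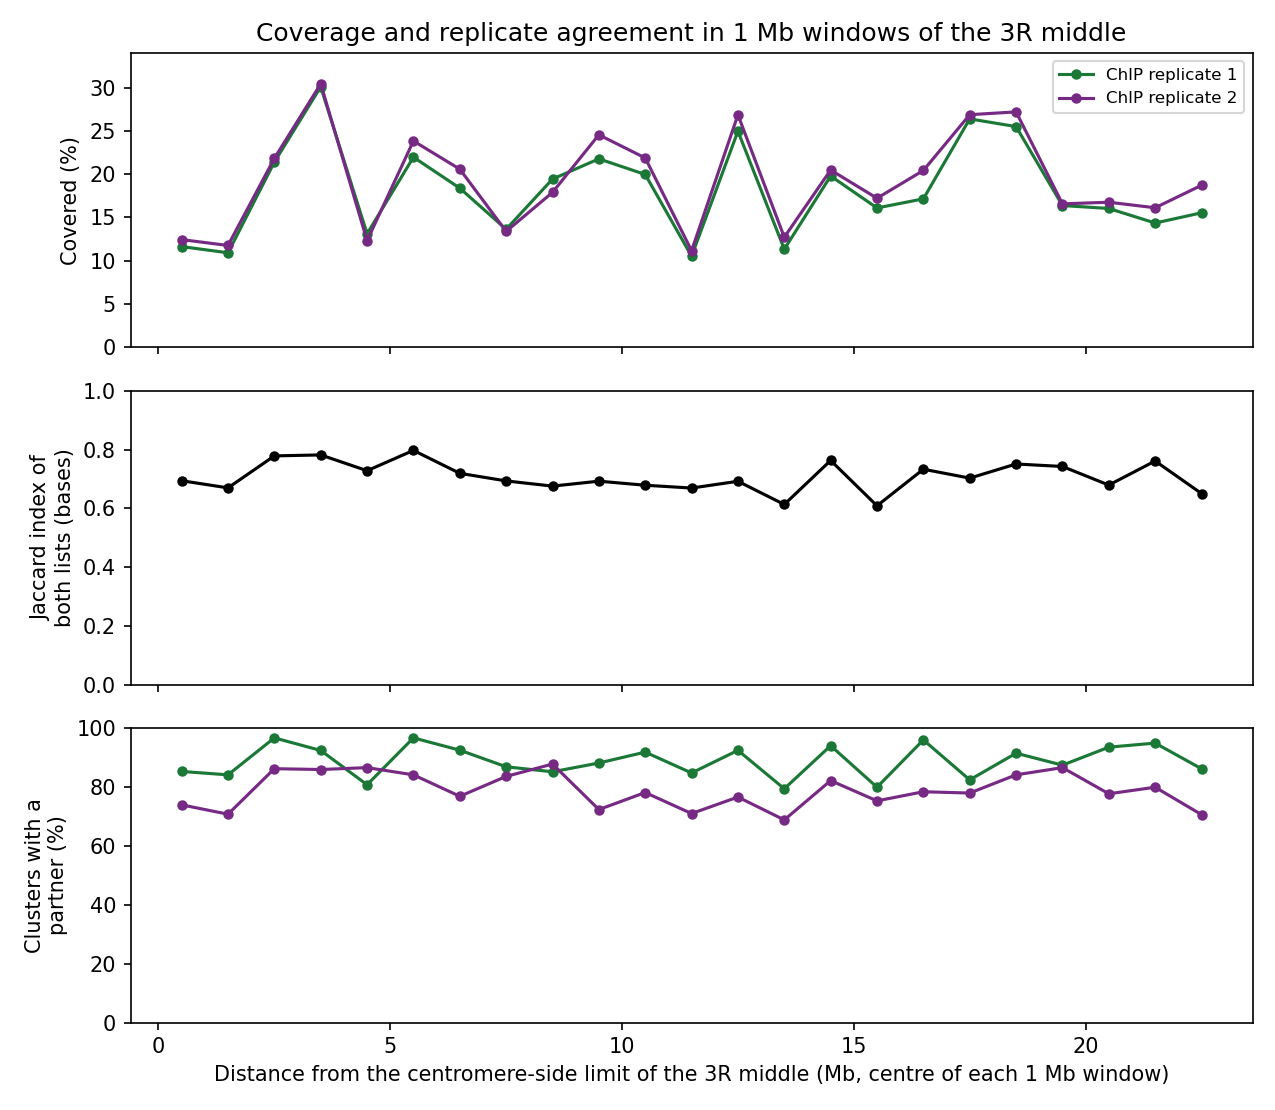
Values of 1 Mb windows of the 3R middle against distance from its centromere-side limit in Mb: percent of bases covered in each replicate (top), Jaccard index of the replicates' bases (middle) and percent of clusters with a partner in the other replicate (bottom). Coverage moves between 10.5% and 30.4%, while the Jaccard index stays between 0.609 and 0.797.

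Most gaps between neighbouring clusters were short, while a small share of long gaps held much of the unmarked sequence. The median gap, from the end of a cluster to the start of the next, was 4515 bp in replicate 1, with quartiles of 1360 bp and 12800 bp. In replicate 2 it was 3844 bp, with quartiles of 1211 bp and 11030 bp (4180 bp ± 474 over both, SD, n = 2). The mean gap was 3.23 times the median in replicate 1 and 3.14 times in replicate 2. Gaps over 40 kb were 9.51% of gaps in replicate 1 and 6.86% in replicate 2, but held 57.1% and 49.9% of the bases in gaps. Gaps of up to 1 kb were 20.6% and 22.2% of gaps, with 0.705% and 0.793% of those bases.

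Clusters with gaps of up to 1 kb between them formed chains. Chains took in 489 clusters of replicate 1 (36.6%) and 619 of replicate 2 (38.9%). Most were pairs, since 43 of 214 chains in replicate 1 and 65 of 267 in replicate 2 held 3 clusters or more. The longest had 7 clusters, from 6692577 to 6715354 in replicate 1, and 7 in replicate 2 from 5579227 to 5600647, the last tied with 1 other. In chains, a call split by a short unmarked stretch and separate marked sites cannot be told apart.

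In both replicates, clusters far from others were shorter and scored lower. In replicate 1 the 58 clusters with no neighbour within 20 kb were 2171 bp long at the median and scored 0.58, against 2860 bp and 0.80 for the 489 with a neighbour within 1 kb. In replicate 2 the 50 such clusters had medians of 1969 bp and 0.54, against 2549 bp and 0.69 for the 619 close ones. Long clusters were found among the far ones too, but less often. In replicates 1 and 2, 8.62% and 8.00% of the far ones were above 5 kb, against 16.8% and 12.3% of the close ones. In the replicate-set list, a further list by the authors, far clusters were also shorter (1848 bp against 2351 bp). Their scores there were close to those of clusters with a neighbour within 1 kb (0.405 against 0.412). Neighbouring clusters had weakly similar scores, with Spearman's rho of 0.21 over 1335 neighbouring pairs in replicate 1 and 0.20 over 1589 in replicate 2. For lengths rho was 0.087 and 0.13, and for gaps next to each other 0.099 and 0.12.

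**Figure D4:**
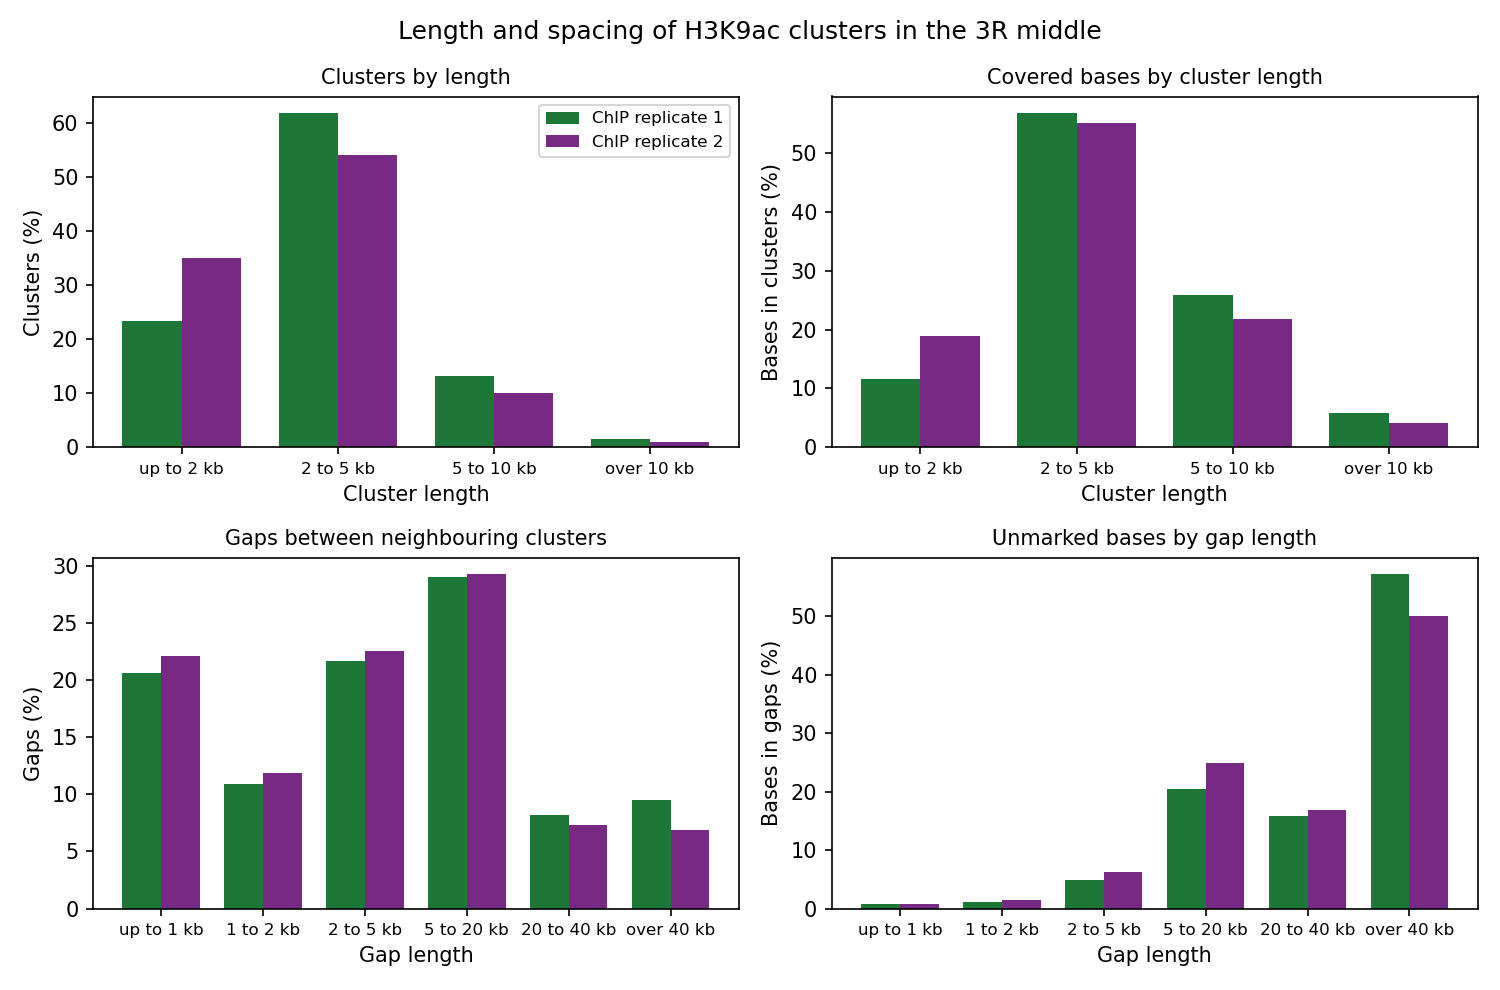
Clusters of the 3R middle by length class (top left) and the bases they hold (top right), and gaps between neighbouring clusters by length class (bottom left) and the bases they hold (bottom right), all in percent of each replicate's own total. Gaps over 40 kb are the fewest in replicate 2, at 6.86%, yet hold 49.9% of the bases in gaps there.

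Most clusters were between 2 and 5 kb long. This class held 826 clusters in replicate 1 (61.8%) and 859 in replicate 2 (54.0%), and 56.7% and 55.1% of the bases in clusters. The class up to 2 kb was larger in replicate 2, with 556 clusters (35.0%) against 313 (23.4%). Between 5 and 10 kb there were 176 and 159 clusters, with 25.8% and 21.8% of the bases. Above 10 kb there were 21 and 16. The shortest cluster was 1301 bp long in each replicate, a length only 2 and 1 clusters had.

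Scores rose with length up to 10 kb. Median scores were 0.45 and 0.48 in the class up to 2 kb, 0.89 and 0.83 from 2 to 5 kb, and 1.11 and 1.15 from 5 to 10 kb, for replicates 1 and 2. Above 10 kb replicate 2 had a median of 1.34 and replicate 1 one of 1.04, so in replicate 1 the longest class did not score above the one before it. The highest single scores came from clusters of 2 to 5 kb in each replicate, 2.45 and 2.19. Over all clusters Spearman's rho of length and score was 0.71 and 0.76.

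The stretches covered in both replicates numbered 1312, with a median length of 2444 bp. Of these, 133 were at least 5 kb long and held 23.6% of the shared bases. By the bin at their centre, 102 of the 133 lay in dense bins, 31 in intermediate and 0 in sparse ones, an order that the class of a bin, being set by shared bases, favours. Each 1 Mb window held at least 1 of them, and the window from 5000001 to 6000000 held the most, 17. The median of the mean scores was 1.25 for these 133 and 0.79 for all 1312.

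The longest shared stretch was 14226 bp, from 19871219 to 19885444, inside the longest dense run. It scored 1.64 in replicate 1 and 1.38 in replicate 2, and the cluster edges of the replicates lay 33 bp and 135 bp apart. A gap of 5166 bp preceded it and one of 29228 bp followed it. The second, 13004 bp from 14805198 to 14818201, was part of the longest cluster of replicate 1, which ran for 24033 bp to 14829230 with a score of 0.89. Replicate 2 had 3 clusters over these 24033 bp, the first of them 13023 bp long with a score of 1.00. Without replicate 2, the longest unbroken domain is therefore this one of 24033 bp, and without replicate 1 it is 17611 bp, from 12067834 to 12085444.

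The third, 12888 bp from 23740835 to 23753722, stood at the border of a desert, with 169158 bp free of clusters on its centromere side, and scored 1.45 and 1.59. The fourth, 12180 bp from 14911963 to 14924142, scored 1.04 and 0.86 and lay 1 bin beyond the second. The fifth, 11608 bp from 12071993 to 12083600, scored 0.91 and 0.94. Stretches of 11273 bp from 25039396 to 25050668 (1.59 and 1.69), 10642 bp from 8835514 to 8846155 (1.33 and 1.18) and 10195 bp from 13503217 to 13513411 (1.05 and 0.92) followed. The ninth was 10067 bp from 24971129 to 24981195 (1.62 and 1.70), and the tenth 10005 bp from 7581015 to 7591019 (1.57 and 1.19). All of these 10 lay in dense bins, as did 76.7% of the 133 stretches of at least 5 kb. The class of a bin is set by shared bases, so the definition favours this. Of the 10, 5 scored higher in replicate 1, against 59.5% of the 1006 pairs of clusters that overlapped 1 to 1.

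Over all 1312 shared stretches, length and mean score rose together (Spearman's rho of 0.73). The 10 longest had mean scores of 0.92 to 1.66, against a median of 0.79 for all. None (0) of these 10 was among the 5 with the highest mean score, which were 3090 to 6018 bp long. With so few picked from 1312, an overlap of 0 says little. The highest ran from 17121472 to 17124561 and scored 2.45 in replicate 1 and 2.19 in replicate 2 (mean 2.32 ± 0.18, SD, n = 2). It had 15249 bp without a cluster on its left and 38113 bp on its right. Measured after their positions were seen, 3 of the 5 fell within 99.99 kb that span a bin border. The other two of these ran from 17092999 to 17097181 (2.12 and 2.05) and from 17189418 to 17192984 (2.06 and 2.11). The others ran from 7033927 to 7038307 (2.22 and 2.03) and from 25868217 to 25874234 (2.19 and 2.03). In 4 of the 5, replicate 1 scored higher, beside 59.5% of the pairs of clusters that overlapped 1 to 1.

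Deserts, taken here as stretches of at least 40 kb with no cluster of either replicate, took up 38.2% of the 3R middle. There were 104 of them, 4.35 per Mb, with a total of 9.14 Mb and a median length of 71.5 kb, and 30 were 100 kb or longer. Every 1 Mb window held between 2 and 8 of their centres. Outside the deserts 25.6% of the bases were covered in both replicates. Deserts filled 72.3% of the average sparse bin, 36.6% of the average intermediate and 8.61% of the average dense bin, and 3 dense bins were more than 50% desert. A dense bin can thus border on, or hold most of, an unmarked stretch.

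The longest desert was 334.7 kb, from 23814616 to 24149301. In replicate 1 the flanking clusters left 335259 bp free and in replicate 2 they left 334786 bp, so the edges differed by at most 573 bp. It held 0 clusters of the replicate-set list, a further list by the authors whose making is not stated. A block of 18.2 kb with clusters separated it from another desert of 177.7 kb, from 24167483 to 24345171, and one of 169.2 kb lay before it, from 23571599 to 23740756. These 3 of the 10 longest deserts thus fell within 774 kb.

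The second longest ran for 212.0 kb from 16155686 to 16367722 and the fifth for 192.7 kb from 15884881 to 16077615, with a block of 78.1 kb between them. The third was 205.8 kb from 18611455 to 18817266. The fourth, 199.6 kb from 3374866 to 3574474, was longer in replicate 2, where 236278 bp were free of clusters. The others were 178.7 kb from 9291122 to 9469835, 174.9 kb from 2296853 to 2471784 and 173.3 kb from 13031684 to 13205024. Each of the 10 held 0 to 2 clusters of the replicate-set list.

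Some deserts ended at strong clusters and others at weak ones. The cluster at the telomere side of the 178.7 kb desert scored 2.25 in replicate 1 and 1.89 in replicate 2, and the one at its other side 0.50 and 0.55. The 205.8 kb desert had clusters of 0.53 and 0.50 on its sides in replicate 1, and of 0.52 and 0.50 in replicate 2. Over all 104 deserts the flanking clusters scored 0.68 at the median in replicate 1 and 0.62 in replicate 2, near the medians of all clusters, 0.75 and 0.65. At 54 of the 104 deserts (51.9%), the flanking clusters of both replicates ended and began within 1 kb of each other.

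The replicate-set list placed few clusters in the deserts. In all, 57 of the 104 held none that lay wholly inside, and the other 47 held 96 with a median score of 0.33 and a highest of 0.44. These filled 1.45% of the desert sequence. A gap of at least 40 kb in one replicate was mostly unmarked in the other as well. Replicate 2 clusters covered 1.91% of the 127 such gaps of replicate 1, and 71 of these gaps held no whole replicate 2 cluster. Replicate 1 clusters covered 0.607% of the 109 such gaps of replicate 2, and 90 held none. The 110 replicate 2 clusters inside gaps of replicate 1 scored 0.51 at the median and were 1577 bp long. Whether reads could be mapped throughout the deserts was not tested.

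The replicates agreed on most clusters of the 3R middle. Of the 1336 clusters of replicate 1, 1195 (89.4%) overlapped a replicate 2 cluster by at least 1 bp, against 88.2% of its whole list. Of the 1590 of replicate 2, 1257 (79.1%) overlapped one of replicate 1, against 78.0% of its whole list. These shares are near those of the whole lists. The Jaccard index of covered bases, the shared bases over those in either list, was 0.713. In 1 Mb windows it ran from 0.609 (17000001 to 18000000) to 0.797 (7000001 to 8000000).

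The share of clusters with a partner went with score and length. A partner needs only 1 bp of overlap and score rose with length, so the criterion favours this order. The stricter overlap was not split by these classes. All 476 clusters of replicate 1 and all 437 of replicate 2 that scored above 1 had a partner (100%). From 0.5 to 1 the shares were 90.9% of 581 and 77.0% of 810, and up to 0.5 they were 68.5% of 279 and 57.1% of 343. All 197 clusters longer than 5 kb in replicate 1, and all 175 in replicate 2, had a partner. Of those up to 2 kb, 63.6% and 49.3% had one. Clusters above 10 kb were covered by the other list to a median of 94.5% of their length in replicate 1 and 95.6% in replicate 2, and to at least 68.8% and 84.3%.

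Paired clusters had close edges. For the 1006 pairs in which each cluster overlapped 1 of the other list, the starts were a median of 102 bp apart and the ends 91 bp, and 70.9% of starts and 71.0% of ends lay within 200 bp. Their scores correlated across clusters with Pearson's r of 0.940 and Spearman's rho of 0.918. The mean score was 0.94 in replicate 1 and 0.91 in replicate 2, a difference of 0.032 with an SD of 0.15 over pairs, and replicate 1 was higher in 599 pairs (59.5%). By 1 Mb window the mean difference lay between -0.037 (23000001 to 24000000) and 0.089 (3000001 to 4000000). It was above 0 in 20 of the 23 windows. Clusters are not replicates, and how the lists were called is not stated, so such differences are given only as differences between lists.

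The clusters without a partner were weak. At the median, the 141 of replicate 1 scored 0.47 and spanned 1626 bp, while the 333 of replicate 2 scored 0.51 and spanned 1580 bp. In replicate 1 49 of them (34.8%) lay within 1 kb of a replicate 2 cluster and 12 (8.51%) were 10 kb or more from any. In replicate 2, 74 (22.2%) were within 1 kb and 84 (25.2%) 10 kb or more away. Nearly all were in the replicate-set list too, 140 of 141 and 305 of 333. The same share for all clusters of each replicate is not given here, so these counts cannot be read as particular to clusters without a partner. The replicate-set list is also not independent of the replicates if it was made from their reads, which is not stated.

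Among the replicate 1 clusters with no partner, the 3 with the highest scores ran from 11731454 to 11733068 (score 0.68), from 15297042 to 15299393 (0.67) and from 14305143 to 14307611 (0.66). The nearest replicate 2 clusters were 608, 3273 and 2111 bp away. In replicate 2 they ran from 25350415 to 25353485 (0.75), from 24734791 to 24737603 (0.74) and from 24923040 to 24925900 (0.71), at 22, 703 and 1157 bp from the nearest replicate 1 cluster. All 3 of replicate 2 lay in the last 1.17 Mb before the telomere-side limit. In the window from 24000001 to 25000000, replicate 2 covered 1.20 times as much as replicate 1, the highest ratio of the 23 windows, against a median of 1.07. The clusters from 24734791 and 24923040 lie in this window, so these observations are not separate. A ratio of 1.19 was found far from that limit, from 18000001 to 19000000.

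Beside the middles of the other 4 large arms, cut in the same way, the 3R middle was the longest, and its coverage was second to that of 2R. Its coverage of 19.0% ± 0.881 (SD, n = 2) lay below that of 2R (22.5% ± 1.45) and above those of 3L (17.3% ± 0.558), 2L (16.3% ± 0.398) and X (15.7% ± 0.278). In each replicate alone the order of 3R, 2R and the other arms was the same. Its deserts took up 38.2%, within the range of the others (29.5% on 2R to 46.5% on X). The median score of 0.70 ± 0.076 also lay within the range of the others, 0.66 to 0.85.

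Some values of 3R were the highest of the 5 arms by small margins in the replicates' lists, but not in the replicate-set list. Clusters above 5 kb were 14.7% of clusters in replicate 1 and 11.01% in replicate 2, against 10.7% to 13.3% and 8.84% to 10.7% on the other arms. The margins over the next highest arm were smaller than the SD of 2.64 between the replicates on 3R. Replicate 1 had the higher share on each of the 5 arms. This SD thus includes a shift common to the arms and does not measure the spread of the margins. In the replicate-set list the share was 15.1% on 3R and 15.98% on 2R, so 3R was not the highest there. The class changed between 62.6% of neighbouring bins, against 55.4% to 59.3% elsewhere. This share also depends on the sizes of the classes, and intermediate bins were 40.2% on 3R and 34.2% to 49.1% on the other arms. In single replicates the share of changes was 62.2% and 60.1% on 3R, and 61.8% and 59.4% on 2R, so 3R and 2R were close. In the replicate-set list it was 53.8% on 3R and 57.9% on X. The correlation of neighbouring bins, 0.19, was lower than on 2L (0.37), X (0.30) and 3L (0.22) and higher than on 2R (0.043). The Jaccard index of 0.713 compared with 0.677 to 0.707. With 2 libraries and 1 arm on each side no test of these differences can be made, and none is claimed to be particular to 3R.

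**Figure D5:**
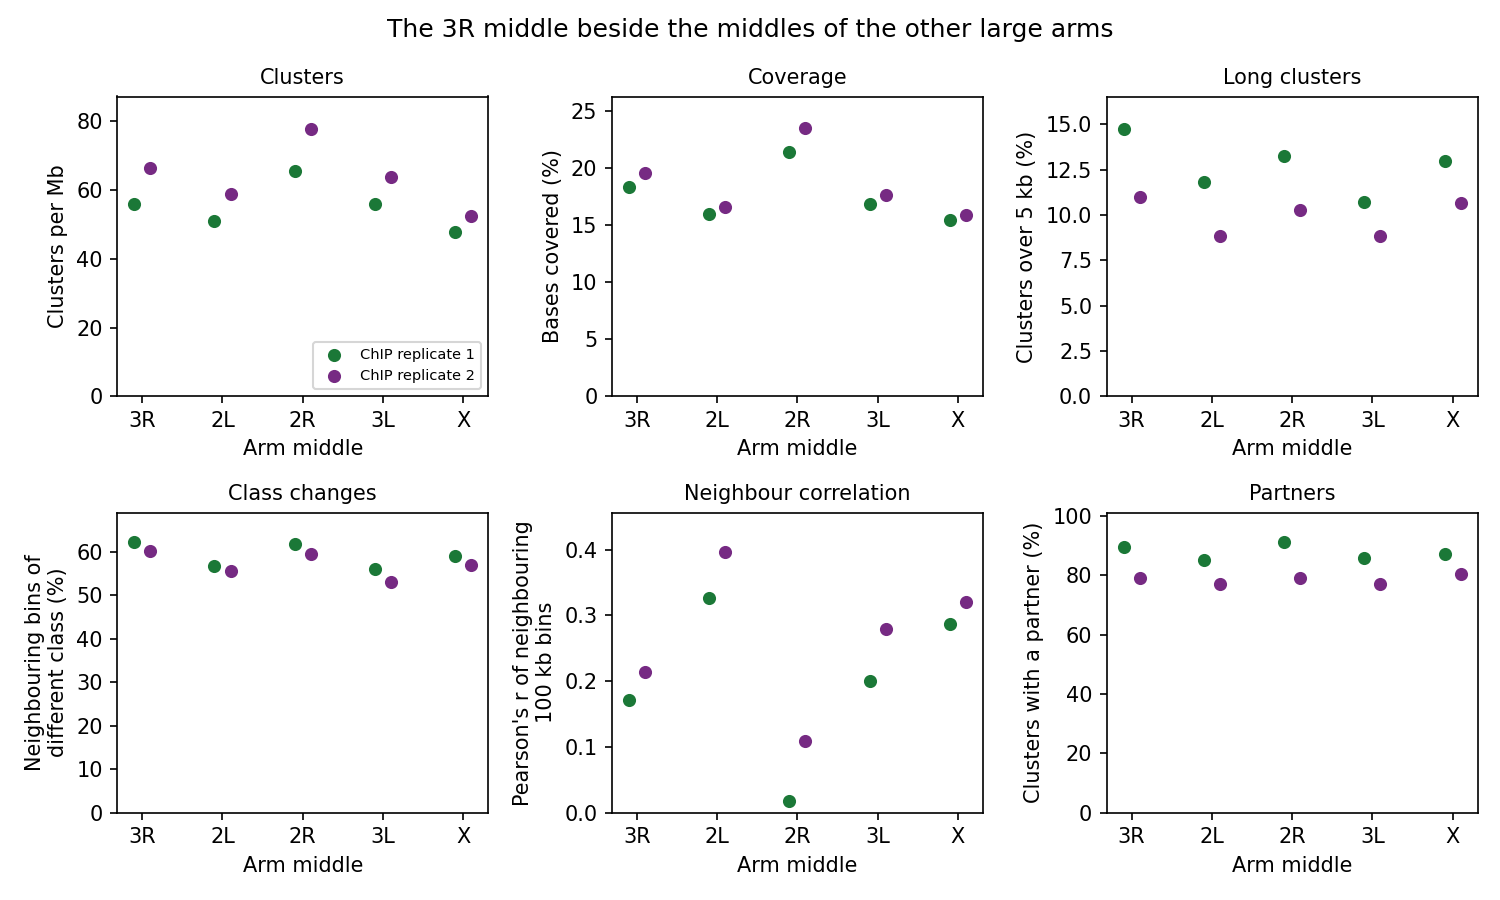
Measures of the 3R middle beside those of the 2L, 2R, 3L and X middles, with 1 point per ChIP replicate: clusters per Mb, percent of bases covered, percent of clusters over 5 kb, percent of neighbouring 100 kb bins of different class, Pearson's r of neighbouring bins, and percent of clusters with a partner. In most panels 3R lies within the spread of the other arms, with coverage second to 2R.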

How the data were processed

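H3K9ac was measured by ChIP-seq in 2 ChIP libraries, with 2 input libraries for which no processed file was used here. Per the submitters' processing notes, Bowtie 0.12.7 was among the tools used. Regions of significant enrichment are on FlyBase release 5, per the file headers. Not given in the sources used here are the caller, its threshold, the use of the inputs and how the authors' replicate-set list was made. The authors deposited a start, an end and a score for each region, and the scale of the score is not stated. Scores are used here to describe and rank clusters within a list, and differences between the lists are given as they stand. For the stretches covered in both replicates, the scores of both lists were averaged and the stretches ranked by that mean. The median scores of the arm middles were averaged over the replicates too. These means assume that both lists use the same scale.

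The rest was computed here with Python 3.11.15, numpy 2.4.6, pandas 2.3.3 and scipy 1.17.1. Positions were read as 1-based and inclusive. Coverage counts the bases of the 3R middle inside any cluster. Clusters were assigned to 100 kb bins by midpoint, and the last 5053 bp, short of a full bin, were left out of bin counts. A partner is a cluster of the other list that overlaps by at least 1 bp. No p-value was computed: the 2 libraries form a single group, and bins and clusters are not replicates. The region, its measures and the rule for named regions were chosen with earlier results of these data known. By that rule the text names the 10 longest stretches covered in both replicates, the 10 longest deserts, the 5 shared stretches with the highest mean score, the 5 bins with the highest coverage (the rule also asked for the 5 lowest, which are tied and not named), the 3 highest-scoring clusters of each replicate without a partner, and the densest and sparsest 1 Mb windows. The interval functions were tested on simulated data. Alternatives were each replicate alone, the replicate-set list, the 50% of clusters with the highest scores, other bins, classes and gap definitions, and a stricter overlap.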

Additional observations from a re-analysis of the deposited data

How the results depend on the processing

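No paired analysis was possible because no comparison between groups was made and no result comes from a test. For the clusters per Mb, the covered share, the median gap and the share of clusters above 5 kb, the reported value is the mean of the replicates, so each replicate alone lies within their SD by construction and shows nothing about stability. Alone, replicates 1 and 2 had 127 and 109 deserts, against 104 reported. The share of neighbouring bins of different class was 60.1% to 62.2%, and the longest domain 17611 to 24033 bp. In the replicate-set list the density was 83.5 clusters per Mb, the covered share 26.4%, the class changes 53.8%, the median gap 2601 bp and the longest domain 33175 bp. With only the top-scoring 50% of each list, the density was 29.7 per Mb, the covered share 12.02% and the median gap 8483.5 bp. The share above 5 kb was then 22.8% and the Jaccard index 0.758. This choice leaves out clusters by definition, so a lower density and covered share follow from it. Bins of 50 kb changed class in 53.0% of pairs and bins of 200 kb in 60.2%. The correlation of neighbouring bins was 0.35 at 50 kb and 0.051 at 200 kb. Measured between midpoints the median spacing was 7604 bp, and joining shared stretches across up to 500 bp made the longest 23532 bp. The number of deserts stayed between 91 and 143 under all its alternatives. An overlap of at least 50% of a cluster's length gave 81.4% of clusters with a partner, against 84.3% as a mean of the replicates. The causes of the changes that do not follow from a definition were not tested. The unknown depth limits what the absence of a cluster can show.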

Other observations

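The longest block of the 3R middle without a desert ran for 867.4 kb, from 11611531 to 12478906. It was picked after its values were seen. It held 70 clusters of replicate 1 and 91 of replicate 2, which covered 25.05% and 29.0% of it, and 21.0% was covered in both. The median block between neighbouring deserts was 96.0 kb long and the shortest 1.44 kb. The centres of neighbouring deserts were a median of 191.5 kb apart.

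Of the 1996 replicate-set clusters in the 3R middle, 498 (24.9%) overlapped neither replicate's list. The same share over the whole replicate-set list is not given here, so this value cannot be read as particular to the 3R middle. At the median they scored 0.34 and spanned 1263 bp, and 277 fell below the minimum length seen in the replicates' lists. The 1104 that overlapped both lists (55.3%) had medians of 0.79 and 3471 bp.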
